A study of Citrus maxima with 12 samples.

Results

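Fruit of diseased Jinsha pomelo held 102 genes at more than 2 times the level of the other diseased cultivars. At these genes diseased Taoxi lay within set limits of diseased Jinlan and of the mean of Taoxi controls 2 and 3. They are 102 of the 32863 IDs in the table, all of them among its 30123 IDs that begin with Cg. The genes were chosen by their group means of FPKM (sequenced fragments divided by gene length and by the size of the library), taken as log2(mean FPKM + 1). A gene entered when Jinsha exceeded both Jinlan and diseased Taoxi by at least 1, Jinlan and diseased Taoxi lay less than about 0.58 apart (1.5-fold in FPKM + 1), diseased Taoxi and its controls lay within 0.8, and the Jinsha mean was at least 3 FPKM. The rule took the mean of Taoxi controls 2 and 3 only, and set no limit between Jinsha and these controls. The levels and differences in these groups are therefore a description of what was chosen, and nothing is supported with them.

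The study sequenced RNA from fruit of Citrus maxima in work on black spot disease of Jinggang honey pomelo. The groups were diseased Jinsha, diseased Jinlan, diseased Taoxi and control Taoxi fruit, with 3 libraries each. Neither the time of sampling nor the part of the fruit is stated in the labels, which also do not say whether the libraries of a group came from separate fruits or trees. The table has 6 further columns, named afCK and jshCK with a number in the manner of its control columns, but no label ties them to a sample and they were not analysed here. Without healthy Jinsha and Jinlan fruit in the comparisons, a difference that belongs to the Jinsha cultivar and a response of Jinsha to disease cannot be told apart.

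Pomelo is one of the founding species of cultivated citrus, and its cultivars are propagated as clones that can differ in many alleles. Citrus fruit combines a peel rich in oil glands, flavonoids and waxes with a juicy pulp, and these tissues express very different genes. Pathogen attack on the peel typically raises genes for cell wall strengthening, phenolic compounds and antimicrobial proteins. The deposited table pairs none of its IDs with a gene name or function, so none of the genes below can be assigned to these processes, and no markers of peel, pulp or seed could be read. In RNA from bulk fruit tissue, more cells of a type and more RNA per cell cannot be told apart.

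The total FPKM of a library lay between 560349 and 577783. One library stood apart. Taoxi control 1 had a mean correlation across genes of 0.960 with diseased Jinsha and 0.975 with diseased Jinlan, against 0.912 with diseased Taoxi and 0.891 with the other Taoxi controls. It took no part in choosing the genes, and its values are given separately throughout.

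The limits of the rule removed genes step by step. Among the Cg IDs, 13069 had a Jinsha mean of at least 3 FPKM, 544 of these exceeded Jinlan by the set difference, and 241 exceeded diseased Taoxi as well. Jinlan and diseased Taoxi were near each other at 120 of the 241. At 102 of the 120, diseased Taoxi also lay near the mean of Taoxi controls 2 and 3. All 102 passed the filter used for the fits across genes (at least 1 FPKM in 3 or more of the 12 libraries, met by 17421 IDs), 2 of them through Jinsha libraries alone.

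**Figure D1:**
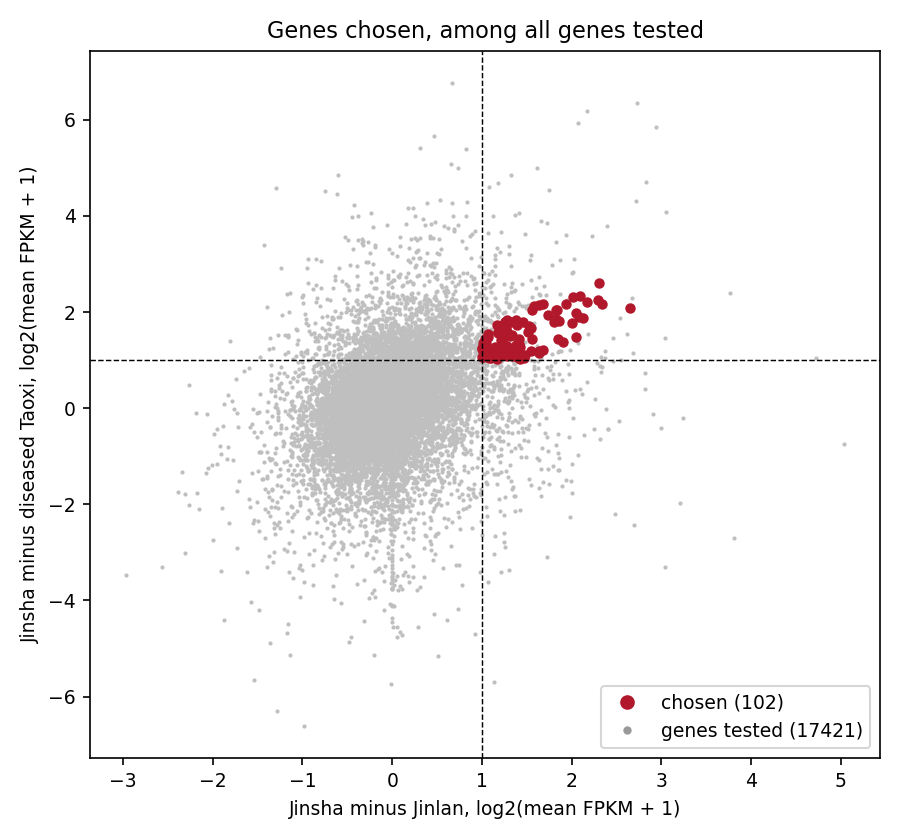
Each point is a gene, with its Jinsha minus Jinlan difference on the x axis and its Jinsha minus diseased Taoxi difference on the y axis, both in log2(mean FPKM + 1). The 102 chosen genes (red) lie beyond 1 on both axes (dashed lines) among the 17421 genes tested (grey), and the grey points in the same corner failed one of the other limits or, for NewGene_1391, do not begin with Cg.

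The genes just inside and just outside each limit differed little. Cg3g016520 entered with a difference of 1.003 to Jinlan, while Cg8g019720 stayed out with 0.9998. Against diseased Taoxi, Cg3g021020 entered at 1.018 and Cg5g033290 stayed out at 0.9996. Cg2g004500 lay just inside the limit between Jinlan and diseased Taoxi at 0.567, and Cg6g010690 just outside it at 0.590. For diseased Taoxi and its controls these genes were Cg4g012180 at 0.796 and Cg2g029580 at 0.814. Cg2g019530 had a Jinsha mean of 3.14 FPKM, just above the minimum, and Cg7g005800 one of 2.96 FPKM.

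Most of the genes were also recorded in the libraries outside Jinsha. At least 1 FPKM was recorded in all 9 libraries of the other groups for 86 of the 102 genes, and 4 were listed at 0 in at least 1 of those libraries. The same shares over all genes tested were not computed, so these counts are a description only. The Jinsha mean was below 10 FPKM for 20 genes, from 10 to under 100 FPKM for 61, and 100 FPKM or more for 21. Over the 102 genes the median group mean was 29.5 FPKM in Jinsha, against 10.6 FPKM in Jinlan, 10.9 in diseased Taoxi and 10.8 FPKM in Taoxi controls 2 and 3. Taoxi control 1 had a median of 15.4 FPKM over the same genes.

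The ratio of the Jinsha mean to the Jinlan mean had a median of 2.69 and ran from 2.04 to 21.1. The ratio to the diseased Taoxi mean had a median of 3.02 and ran from 2.06 to 14.0. Against Taoxi controls 2 and 3, where the rule set no limit of its own, the ratio had a median of 2.97 and a lowest value of 1.30, and it was under 2 for 15 genes. Both ratios to the diseased cultivars were at least 4 for 13 genes, and at least 1 of them was under 3 for 68. The lowest ratio to the controls was that of Cg5g004720, named after its values were seen, with 61.3, 78.6 and 90.1 FPKM in Jinsha, against 58.0 and 59.6 FPKM in Taoxi controls 2 and 3. Among the 20 genes below 10 FPKM in Jinsha the median ratios were 3.80 to Jinlan and 4.11 to diseased Taoxi. Among the 21 genes at 100 FPKM or more they were 2.52 and 2.58. The rule added 1 to each mean, which demands a larger ratio of a gene at a low level, so nothing is read from this contrast. On the log2(FPKM + 1) scale the median difference was 1.31 to Jinlan and 1.45 to diseased Taoxi, beside medians of -0.11 and 0.04 over all 17421 genes tested. Median-ratio scaling brought the median of all genes for Jinsha minus Jinlan to -0.003, where it was -0.11 on the values as deposited.

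**Figure D2:**
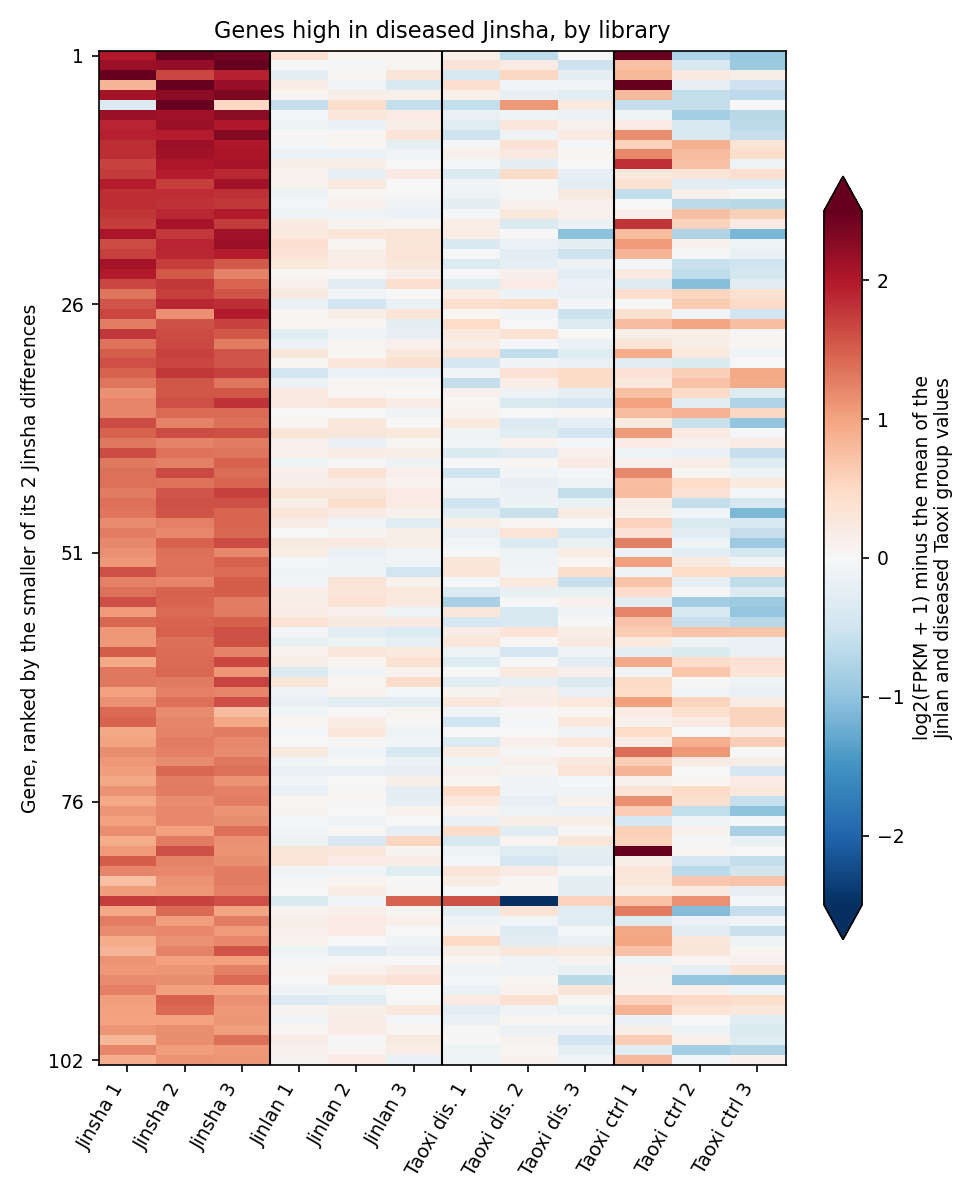
Rows are the 102 genes, ranked from the top by the smaller of their 2 Jinsha differences, and columns are the 12 libraries. Colour shows log2(FPKM + 1) minus the mean of the Jinlan and diseased Taoxi group values, and the red Jinsha block stands beside mostly pale Jinlan and diseased Taoxi (dis.) blocks and a Taoxi control (ctrl) 1 column that is warmer than those of controls 2 and 3.

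The 102 genes carried a larger share of the total FPKM in Jinsha than in Jinlan and diseased Taoxi, which follows from the choice. Their summed FPKM was 6843, 7394 and 7721 in Jinsha 1, 2 and 3, against 2814, 2837 and 2751 in Jinlan and 2863, 2610 and 2617 in diseased Taoxi. In percent of the library's total FPKM this was 1.22, 1.30 and 1.38 in Jinsha, against 0.487 to 0.501 in Jinlan and 0.460 to 0.496 in diseased Taoxi. The Taoxi controls held sums of 4364, 3227 and 2693 FPKM, or 0.771%, 0.562% and 0.466%. Control 1 had the highest sum outside Jinsha.

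The lowest Jinsha library stood above the highest of the 8 libraries used by the rule outside Jinsha for 101 of the 102 genes, and above the highest of all 9 for 90. The same was true of 11.5% and 10.1% of all genes tested. In a limma fit over the 12 libraries, 94 of the 102 were higher in Jinsha than in Jinlan at an adjusted p below 0.05, as were 7.98% of all genes, and 98 were higher than in diseased Taoxi, as were 29.6% of all genes. The genes were chosen for these differences on these libraries, so all of these counts follow from the choice, the limma calls are no test of the genes, and nothing is read from them.

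Among the 8 genes with the largest differences to both cultivars, 5 had every Jinsha library above all 9 other libraries. Cg9g017390 had 84.6, 88.3 and 109 FPKM in Jinsha, against 17.8, 18.2 and 19.4 in Jinlan, 23.3, 21.4 and 12.5 FPKM in diseased Taoxi, and 31.4, 13.8 and 9.16 FPKM in Taoxi controls 1, 2 and 3. Cg2g044740 had 64.9, 73.1 and 78.2 FPKM in Jinsha, against 15.5, 16.6 and 16.0 in Jinlan, 16.0, 12.5 and 11.8 FPKM in diseased Taoxi, and 26.4, 9.38 and 8.95 FPKM in the controls. At both genes every Jinsha library was more than double any other, and Taoxi control 1 came next. Their log2 differences to Jinlan were 2.28 ± 0.36 for Cg9g017390 and 2.09 ± 0.32 for Cg2g044740 (SE, limma over 12 libraries). Without Taoxi control 1, which is in neither group compared, the standard errors were 0.20 and 0.10.

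Cg3g013530 had 29.9, 28.6 and 31.7 FPKM in Jinsha, against 5.76, 7.33 and 6.94 in Jinlan, 5.07, 5.37 and 5.23 FPKM in diseased Taoxi, and 5.38, 2.90 and 3.26 FPKM in the controls. Cg6g025070 had 10.2, 12.3 and 10.97 FPKM in Jinsha, against 1.77, 1.68 and 2.36 in Jinlan, 1.43, 2.65 and 2.22 FPKM in diseased Taoxi, and 2.43, 1.29 and 0.907 FPKM in the controls. At both, Taoxi control 1 lay at or near the level of the diseased Taoxi libraries. The log2 differences of these genes to Jinlan were 2.02 ± 0.16 and 2.06 ± 0.22 (SE, limma). Without Taoxi control 1 the standard errors were 0.09 and 0.15. CgUng015120 had 17.1, 7.14 and 8.71 FPKM in Jinsha, against 1.16, 1.63 and 2.17 in Jinlan, 0.927, 2.66 and 1.20 FPKM in diseased Taoxi, and 3.55, 1.99 and 1.82 FPKM in the controls. Its Jinsha libraries differed 2.40-fold from lowest to highest, yet the lowest was still above all 9 other libraries.

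At the other 3 of the 8, the Jinsha libraries did not all stand above the other 9. Cg4g022200 had 14.7, 28.2 and 19.8 FPKM in Jinsha, against 4.07, 3.15 and 3.06 in Jinlan, 3.34, 1.53 and 2.94 FPKM in diseased Taoxi, and 1.31 and 1.03 FPKM in Taoxi controls 2 and 3. Taoxi control 1 had 64.6 FPKM, above every Jinsha library. CgUng021670 had 1.56, 10.7 and 5.43 FPKM in Jinsha, against 0.629, 0.357 and 0.0982 in Jinlan, 0.892, 0.362 and 0.369 FPKM in diseased Taoxi, and 0.233 and 0 FPKM in Taoxi controls 2 and 3. Taoxi control 1 again stood above all Jinsha libraries, at 24.2 FPKM.

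At Cg2g004500 a single library made the Jinsha mean. Its values were 0.181, 21.1 and 1.18 FPKM in Jinsha, against 0, 1.06 and 0 in Jinlan, 0, 2.22 and 0.802 FPKM in diseased Taoxi, and 0, 0 and 0.505 FPKM in the controls. The Jinsha libraries overlapped those of the other groups. Its log2 difference to Jinlan was 1.595 ± 0.89 (SE, limma), and 0.33 without Jinsha 2. This was the only gene of the 102 whose Jinsha libraries overlapped the 8 others used by the rule.

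**Figure D3:**
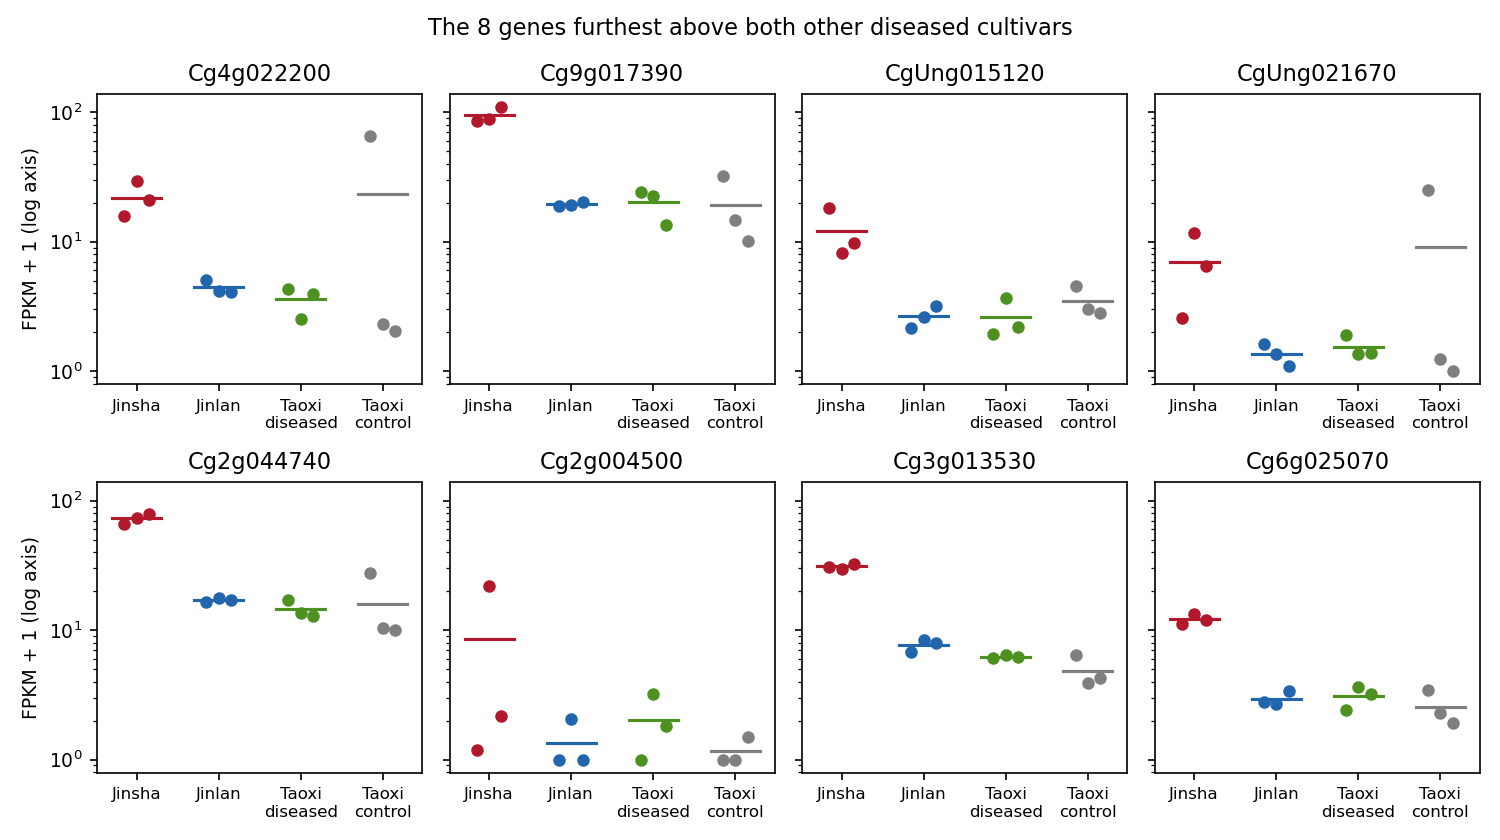
FPKM + 1 on a log axis at the 8 genes furthest above both other diseased cultivars, with 1 point per library (libraries 1 to 3 from left to right in each group) and a line at FPKM + 1 for the group mean. The Jinsha points lie above the Jinlan and diseased Taoxi points in every panel but that of Cg2g004500, and Taoxi control 1 tops the panels of Cg4g022200 and CgUng021670.

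The 6 most abundant of the genes averaged 270.1 FPKM or more in Jinsha. FPKM is scaled by gene length, so levels may be set side by side. Cg9g006410 had 634, 594 and 595 FPKM in Jinsha, against 282, 289 and 293 in Jinlan, 300.4, 275 and 311 FPKM in diseased Taoxi, and 274, 303 and 313 FPKM in the controls. The 9 libraries outside Jinsha lay within a narrow band and Taoxi control 1 was among them. Cg4g001470 had 598, 586 and 629 FPKM in Jinsha, against 253, 259 and 242 in Jinlan, 219, 198 and 210 FPKM in diseased Taoxi, and 387, 314 and 271 FPKM in the controls. Here all 3 Taoxi controls were above the diseased Taoxi libraries and below those of Jinsha.

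Cg9g026260 had 313, 359 and 362 FPKM in Jinsha, against 133, 135 and 127 in Jinlan, 142, 133 and 137 FPKM in diseased Taoxi, and 229, 246 and 192 FPKM in the controls. It too was higher in control than in diseased Taoxi. Cg7g021880 had 271, 304 and 298 FPKM in Jinsha, against 129, 124 and 131 in Jinlan, 117, 146 and 148 FPKM in diseased Taoxi, and 97.1, 123 and 128 FPKM in the controls. Taoxi control 1 was the lowest library at Cg7g021880, in contrast to most of the genes.

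Cg5g009710 had 234, 310.2 and 307 FPKM in Jinsha, against 124, 108 and 104 in Jinlan, 112, 95.1 and 87.8 FPKM in diseased Taoxi, and 176, 147 and 84.6 FPKM in the controls. Cg2g034870 had 230.2, 277 and 303 FPKM in Jinsha, against 105, 99.2 and 101 in Jinlan, 133, 101 and 112 FPKM in diseased Taoxi, and 221, 127 and 99.9 FPKM in the controls. At both, Jinsha 1 was the lowest Jinsha library and control 1 the highest Taoxi library. The log2 differences of these 6 genes to Jinlan ran from 1.07 ± 0.08 at Cg9g006410 to 1.39 ± 0.24 at Cg2g034870 (SE, limma). Without Taoxi control 1 these standard errors were 0.07 and 0.13.

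The spread between Jinsha replicates was wider, by its median, than over all IDs of like minimum level. The coefficient of variation over the 3 Jinsha libraries had a median of 11.3% over the 102 genes and ran from 0.817% to 158%, beside a median of 6.58% over all 13683 IDs with a Jinsha mean of at least 3 FPKM. In diseased Taoxi the medians were 16.7% for the 102 genes and 8.83% for those IDs, and in Jinlan 8.89% and 5.84%. The means of these same libraries chose the genes, and a mean raised by a single library could meet the rule. Nothing is therefore read from the wider spread. The highest Jinsha library was under 1.5 times the lowest for 90 genes and at least 2 times the lowest for 3, namely CgUng015120, CgUng021670 and Cg2g004500.

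The tightest of the genes was Cg9g016130, with 82.2, 81.4 and 80.9 FPKM in Jinsha, against 20.2, 22.8 and 22.3 in Jinlan, 20.0, 21.5 and 26.1 FPKM in diseased Taoxi, and 14.0, 24.2 and 22.7 FPKM in the controls. Cg9g011920 had 27.5, 27.0 and 26.1 FPKM in Jinsha, against 6.75, 7.65 and 6.44 in Jinlan, 5.76, 7.60 and 7.73 FPKM in diseased Taoxi, and 6.99, 4.04 and 3.89 FPKM in the controls. Both stood nearly 4-fold above the other diseased cultivars, with ratios of 3.75 and 3.86 to Jinlan and 3.61 and 3.82 to diseased Taoxi. Cg3g013790 averaged 112 ± 3.2 FPKM in Jinsha, 41.9 ± 3.6 FPKM in Jinlan and 52.8 ± 6.3 in diseased Taoxi (SD, n = 3 each). Cg3g022270 averaged 18.6 ± 0.43 FPKM in Jinsha, 7.57 ± 0.46 FPKM in Jinlan and 5.01 ± 1.02 in diseased Taoxi (SD, n = 3 each).

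One gene combined even Jinsha values with erratic ones elsewhere. CgUng018300, singled out after its values were seen, had 30.1, 29.0 and 27.5 FPKM in Jinsha, against 6.32, 7.85 and 24.8 in Jinlan, 27.1, 0 and 12.9 FPKM in diseased Taoxi, and 14.3, 19.5 and 7.95 FPKM in the controls. Its lowest Jinsha library cleared the highest other library by less than 1 FPKM.

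Jinsha 1 was often the lowest Jinsha library at these genes. This was so for 63 of the 102, and for 28.5% of all genes tested, while Jinsha 3 was the highest at 43, and at 26.4% of all genes. By level, Jinsha 1 was the lowest at 13 of the 20 genes below 10 FPKM, at 37 of the 61 from 10 to under 100 FPKM and at 13 of the 21 at 100 FPKM or more. Jinsha 3 was the highest at 5, 25 and 13 of these genes. The summed level of the genes was lowest in Jinsha 1 as well, whereas their median level was 30.0 FPKM in Jinsha 1, 28.5 FPKM in Jinsha 2 and 28.6 FPKM in Jinsha 3. The mean of these Jinsha libraries was part of the choice, so nothing is read from the order of the libraries.

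Jinlan and diseased Taoxi, which the rule held close together, still differed at some of the genes. All Jinlan libraries were above all diseased Taoxi libraries at 28 genes and below them at 13, beside 45.5% and 27.2% of all genes tested. By group means Jinlan was above diseased Taoxi at 61 genes and below it at 41. Within Taoxi, all diseased libraries were above controls 2 and 3 at 22 genes and below both at 27, beside 30.8% and 21.3% of all genes. Since the rule bounded both differences, nothing is read from these shares.

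Within these counts, among the 21 genes at 100 FPKM or more in Jinsha, 2 were higher and 6 lower in every diseased Taoxi library than in controls 2 and 3. Of the 61 genes from 10 to under 100 FPKM, 13 were higher and 16 lower, and of the 20 genes below 10 FPKM, 7 were higher and 5 lower. Cg4g012180 was the gene nearest to the limit, with 113, 80.6 and 65.1 FPKM in diseased Taoxi, against 163 and 138 FPKM in Taoxi controls 2 and 3. In Jinsha it had 198, 246 and 265 FPKM, above all of these.

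Taoxi control 1, the library that the rule did not use, was higher than Jinlan at most of the genes. It stood above the highest Jinlan library at 73 of the 102 genes and below the lowest at 14, whereas the corresponding shares of all genes tested were 28.8% and 44.3%. Its median log2(FPKM + 1) difference to the Jinlan mean was 0.44 over the 102 genes and -0.06 over all genes tested. Against Taoxi controls 2 and 3 its median difference was 0.60 over the 102 genes and 0.14 over all genes, and it was above both at 69 of the 102 and at 54.1% of all genes. The rule chose genes at which Jinlan and diseased Taoxi were low beside Jinsha, and held controls 2 and 3 near diseased Taoxi. The groups that Taoxi control 1 is set against were thus part of the choice, and nothing is read from these counts. Taoxi control 1 is 1 library, so no test is given. The part of this choice and of the library's unusual makeup in these values was not tested.

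This library still stood below Jinsha at most of the genes. Its median ratio to the Jinsha mean was 0.482, and its median ratio to the Jinlan mean was 1.40. It was above the lowest Jinsha library at 11 genes and above the highest at 4, beside 67.6% and 47.8% of all genes, a contrast that the choice of genes high in Jinsha fixes. The 4 were Cg4g022200, CgUng021670, Cg4g022120 and Cg5g043280, the last named after its values were seen. At these genes "high only in Jinsha" does not hold for Taoxi control 1.

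Cg4g022120 had 16.7, 24.6 and 17.6 FPKM in Jinsha, against 9.43, 9.13 and 7.95 in Jinlan, 6.80, 5.92 and 6.29 FPKM in diseased Taoxi, and 7.75 and 7.40 FPKM in Taoxi controls 2 and 3. Taoxi control 1 had 51.8 FPKM. Like Cg4g022200 and CgUng021670, it was highest in Taoxi control 1 and, within Jinsha, in Jinsha 2. Its log2 difference to Jinlan was 1.05 ± 0.56 with all libraries and had a standard error of 0.13 without Taoxi control 1 (limma). Cg5g043280 had 23.1, 24.7 and 23.3 FPKM in Jinsha, against 27.2, 21.7 and 9.65 FPKM in Taoxi controls 1, 2 and 3, so that Taoxi control 2 was close to Jinsha too.

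**Figure D4:**
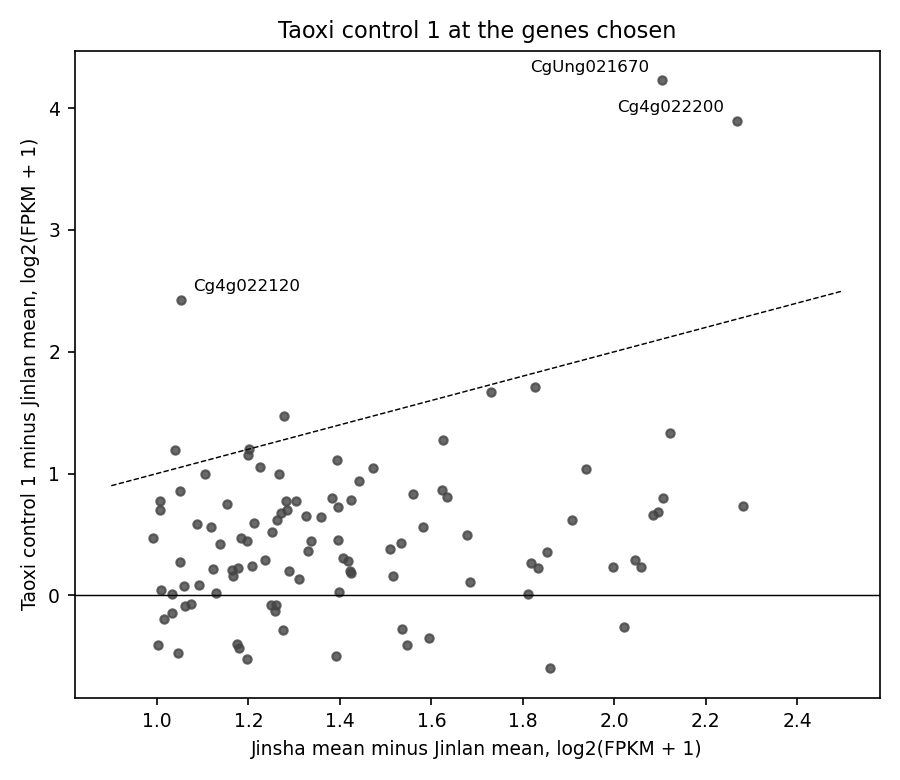
Each point is 1 of the 102 genes, with the Jinsha mean minus the Jinlan mean on the x axis and Taoxi control 1 minus the Jinlan mean on the y axis, both in log2(FPKM + 1). The solid line marks no difference from Jinlan and the dashed line a Taoxi control 1 value equal to the Jinsha mean, so that most points lie between the lines and Cg4g022200, CgUng021670 and Cg4g022120 lie far above both.

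The IDs of the 102 genes were spread over all ID prefixes of the table. Of the Cg genes tested, 102 of 16274 (0.627%) were among them. The prefix Cg4g held 16 of 1488 (1.08%) and Cg5g 22 of 2810 (0.783%), while Cg1g held 4 of 1593 (0.251%) and Cg6g 1 of 1485 (0.0673%). CgUng held 4 of 442 (0.905%), and the other prefixes lay between 0.544% and 0.734%. The IDs were not set against a genome here, so the prefixes are given as parts of the names only.

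Some of the genes were next to each other in ID order. Counting IDs with the same prefix in the order of their numbers, 6 genes formed 3 pairs at most 2 IDs apart, and there was no longer run. In each pair the IDs followed each other directly in that order. How many such pairs a like number of other IDs would form was not tested. Cg4g001460 and Cg4g001470 were the most abundant pair. Cg4g001460 had 144, 109.6 and 120.1 FPKM in Jinsha, against 47.1, 55.2 and 46.0 in Jinlan, 54.2, 36.1 and 39.4 FPKM in diseased Taoxi, and 54.2, 30.9 and 22.6 FPKM in the controls. It was highest in Jinsha 1, whereas its neighbour Cg4g001470 was highest in Jinsha 3.

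The other pairs were expressed at lower levels. Cg5g003490 had 10.2, 13.9 and 15.0 FPKM in Jinsha, against 4.06, 3.34 and 3.13 in Jinlan, 4.97, 5.64 and 4.90 FPKM in diseased Taoxi, and 7.21, 7.57 and 7.56 FPKM in the controls. Cg5g003500 had 6.83, 8.66 and 8.25 FPKM in Jinsha, against 1.06, 1.55 and 1.52 in Jinlan, 1.72, 2.65 and 2.93 FPKM in diseased Taoxi, and 2.64, 3.26 and 4.46 FPKM in the controls. In this pair both genes were lowest in Jinlan and higher in control than in diseased Taoxi by group mean. Cg2g019520 averaged 4.01 ± 0.86 FPKM in Jinsha, 0.714 ± 0.056 FPKM in Jinlan and 1.21 ± 0.20 in diseased Taoxi (SD, n = 3 each), and Cg2g019530 averaged 3.14 ± 0.43, 0.624 ± 0.271 and 0.753 ± 0.105 FPKM in these groups.

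The IDs flanking the pairs did not share the pattern. Several of them, such as Cg5g003480 at 0 FPKM in every group, did not pass the filter and could not show it. Cg5g003510, next to the Cg5g003490 pair, had a mean of 36.0 FPKM in Jinsha, 88.6 in Jinlan and 38.4 in diseased Taoxi. Cg4g001480, next to the Cg4g001460 pair, had 15.9 FPKM in Jinsha, 36.2 in Jinlan and 16.2 in diseased Taoxi. Both were lower in Jinsha than in Jinlan and near the level of diseased Taoxi. Cg2g019510, before the Cg2g019520 pair, had 12.6 FPKM in Jinsha, 4.59 in Jinlan and 21.7 in diseased Taoxi, above Jinlan but below Taoxi. The flanking IDs are named for their position. Near-identical gene copies may share reads between neighbouring IDs, which was not tested. None of the 102 genes had values equal to those of a second ID in every library. Equal values in every library are not needed for reads to be shared, so nothing is read from this.

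**Figure D5:**
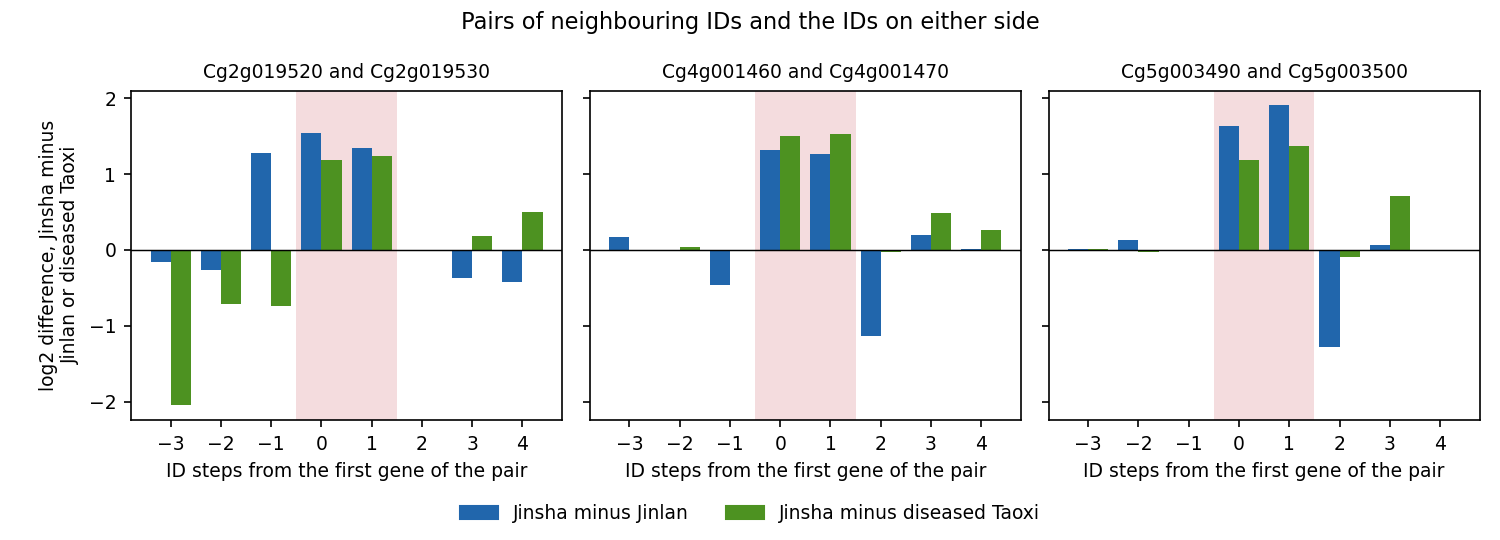
Bars show the log2(mean FPKM + 1) difference of Jinsha to Jinlan (blue) and to diseased Taoxi (green) at the 3 pairs of neighbouring IDs (shaded) and at the 3 IDs on either side, by ID steps from the first gene of the pair. Only the shaded genes exceed 1 in both differences among the IDs shown.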

How the data were processed

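RNA came from an RNeasy kit, and a SMARTer mRNA-seq kit was used for the libraries, per the labels' protocols. The authors deposited 1 table of FPKM values, used as deposited. How the reads were aligned and counted, and on which genome build, is not given in the sources used here. Its 6 columns that match no labelled sample were not used. Columns were matched to samples by title. Low values showed no whole-read steps (at most 1.81% of log2 ratios between replicates in 1 bin 0.02 wide), so depth is unknown and no counting interval is given.

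The genes, the alternatives and the rules for naming genes were chosen with earlier results of these data known. Named were the 8 genes with the largest differences, the 6 most abundant, the 4 least and 4 most even in Jinsha, neighbouring IDs, the 3 highest in Taoxi control 1 and those next to a limit. Lists of pathways and tissue markers could not be filled without gene names.

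limma 3.58.1 in R 4.3.3 was fitted to log2(FPKM + 1) of the 17421 IDs with at least 1 FPKM in 3 or more of 12 libraries, with 1 mean per group, empirical Bayes with a trend and Benjamini-Hochberg adjustment at 0.05 (two-sided). It gives the standard errors, which pool the spread of all 12 libraries, Taoxi control 1 included, and was tested on simulated data. p-values set a difference against this pooled spread between libraries, which may be technical. Fold changes on this scale understate those of low genes. Alternatives covered the pseudocount, filter, scaling, limits of the rule, model and each library left out. Figures used matplotlib 3.10.9.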

Additional observations from a re-analysis of the deposited data

How the results depend on the processing

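The number of genes meeting the rule was 20 with differences of at least 3-fold and 63 with Jinlan and diseased Taoxi within 0.3, against 102 as reported, and 82 to 139 under the other changes of pseudocount, scaling or limit. Leaving out 1 of 11 libraries gave 92 to 109 genes, and 45 of the 102 met the rule with each of the 11 left out in turn. Under all 4 scalings 76 of the 102 met it. Median-ratio scaling moved the median Jinsha minus Jinlan difference of all genes from -0.11 to -0.003.

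The median difference to Jinlan (1.31) became 1.43 and 1.38 with pseudocounts of 0.1 and 0.5, 1.42 with median-ratio, 1.37 with upper-quartile and 1.38 with quantile scaling and 1.38 as TPM, and 1.28 to 1.35 with a library left out. That to diseased Taoxi (1.45) became 1.577 and 1.52 with the pseudocounts and 1.52 as TPM. It was 1.41 with median-ratio, 1.475 with upper-quartile and 1.39 with quantile scaling, and 1.36 to 1.49 with a library left out. That of Taoxi control 1 to Jinlan (0.44) became 0.48 and 0.47 with the pseudocounts, 0.48, 0.46 and 0.47 with the 3 scalings and 0.46 as TPM, and 0.40 to 0.43 without a Jinlan library.

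The genes passing in limma, a count that the choice of genes fixes, numbered 83 to 100 against Jinlan and 92 to 100 against diseased Taoxi with a library left out, and those with no overlap 90 to 101. Same-numbered libraries showed little deviation in common (r over 0.1 for 3 of 18 pairs). A weak correlation cannot show whether the numbers pair samples, and the labels do not say. With the replicate block 94 genes passed against Jinlan and 97 against diseased Taoxi. The 27 genes named by rule kept the direction of their difference to Jinlan under every alternative run. They were chosen for this difference, so nothing is read from its direction. Over these genes and settings, the difference moved by more than its SD between libraries in 25 cases and by no more in 299. At Cg2g004500 it fell from 1.595 to 0.33 without Jinsha 2.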

Other observations

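The table also holds 2740 IDs that begin with NewGene, which the rule left aside. A single one met the same limits. NewGene_1391 had 4.52, 4.79 and 3.32 FPKM in Jinsha, against 1.42, 1.81 and 1.32 in Jinlan, 0.996, 0.344 and 1.01 FPKM in diseased Taoxi, and 1.66, 0.286 and 0.0583 FPKM in Taoxi controls 1, 2 and 3.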
